A study of Mus musculus with 23 samples.

Results

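The 9 genes described here encode membrane proteins that open on membrane stretch or on a change in cell volume, or that carry calcium and magnesium and have been linked to mechanical responses, leaving out Piezo1 itself: Tmem63a, Tmem63b, Lrrc8a, Lrrc8b, Lrrc8c, Lrrc8d, Trpv2, Trpm7 and Pkd2. They were chosen by name and not by a rule on any measured value, though with earlier results of these data known. They were matched by gene identifier among 21878 genes of the sorted neutrophil tables and by symbol among 55335 genes of the whole-lung table. All 9 were found in every table.

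Bulk RNA-Seq of mouse samples was made in 3 experiments with 23 libraries in all. In the tissue comparison, neutrophils were sorted as CD45+CD11b+Ly6G+ cells from perfused lung, peripheral blood (PB) and bone marrow (BM) of WT mice, with 3 libraries per tissue. In the Piezo1 experiment, the same gate was applied to lung and PB of WT mice and of Piezo1-cKO mice, with 2 libraries per group. The Piezo1-cKO mice carried Piezo1 fl/fl and Vav1-iCre, a driver active in hematopoietic cells and not in neutrophils alone, and whether the WT mice of this experiment carried the floxed allele is not given in the labels. In the depletion experiment, whole lungs came from WT mice given an isotype control antibody or an anti-Ly6G antibody that removes neutrophils (PMN), with 3 libraries each, collected the day after the antibody. The study's methods describe adult mice of either sex in general and some neutrophil depletion at a young age, and the strain, age and sex behind these libraries are not given in the labels. Lung and PB cells, but not BM cells, were enriched by negative selection before sorting. The study's methods describe enzymatic digestion for lung tissue and none for PB or BM. Differences of sorted lung cells from PB or BM cells therefore cannot be told apart from that step. For the tissue comparison the study's figure legend gives 3 mice. No label ties a library to a separate animal in any of the experiments. The p-values therefore measure the spread between libraries, which may be partly technical.

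TMEM63 proteins are cation channels gated by membrane tension, and the form encoded by Tmem63b also opens under hypo-osmotic conditions. LRRC8 proteins assemble into the volume-regulated anion channel, in which LRRC8A is the obligatory subunit and the other family members decide what the pore passes, with LRRC8D favouring organic osmolytes and larger uncharged molecules. TRPV2 is a calcium-permeable cation channel abundant in myeloid cells, TRPM7 joins a magnesium- and calcium-conducting channel to a kinase domain, and PKD2 is the polycystin channel that partners with the PKD1 receptor-like protein. Neutrophils deform as they pass lung capillaries, which is the setting in which the study examined mechanical sensing.

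In the RefSeq annotation of GRCm38.p6, the assembly that corresponds to mm10, Tmem63a spans chr1:180942286-180975106 on the plus strand and Tmem63b chr17:45660172-45686343 on the minus strand. Lrrc8a spans chr2:30237769-30263790 on the plus strand, and Trpm7 chr2:126791558-126876261 on the minus strand. Trpv2 spans chr11:62574486-62600305 and Pkd2 chr5:104453982-104505819, both on the plus strand. Lrrc8b (chr5:105415206-105490079), Lrrc8c (chr5:105519345-105613018) and Lrrc8d (chr5:105699963-105815215) follow one another on the plus strand of chromosome 5, with gaps of 29266 and 86945 bases and 0 protein-coding genes between them. In the GENCODE annotation, no pair of family members shared a stretch of 50 bases of exon sequence. Lrrc8a shared 68.3% of its exonic bases there with other genes, namely Gm28035 on the same strand and 1700084E18Rik on the opposite strand. Its reads may be split with Gm28035 where counting included that gene. Tmem63b shared 7.73% with Mrpl14 and Gm16172 on the opposite strand. Whether counting used the strand is not given in the sources used here.

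The promoter windows of the 3 neighbouring LRRC8 genes and of Trpv2 are printed because their transcripts stood at opposite ends of the range in neutrophils: Lrrc8d and Trpv2 were among the most abundant members, Lrrc8c was near 1 FPKM (a read level scaled by transcript length and library size) and Lrrc8b was at or near 0. Each window holds 250 bases before and 50 bases after 1 annotated RefSeq transcript start (GRCm38.p6), written 5′ to 3′ on the plus strand. For the 3 LRRC8 genes this start lies inside the gene span given above, downstream of its first base. Capitals mark the motifs searched on both strands, namely GAGGAA (a PU.1 core), TTGCNNAA (a C/EBP core), CCGGAA (an ETS core), TATAAA and CCAAT, and no 2 searched motifs overlapped in these windows.
Lrrc8b chr5:105415525-105415824: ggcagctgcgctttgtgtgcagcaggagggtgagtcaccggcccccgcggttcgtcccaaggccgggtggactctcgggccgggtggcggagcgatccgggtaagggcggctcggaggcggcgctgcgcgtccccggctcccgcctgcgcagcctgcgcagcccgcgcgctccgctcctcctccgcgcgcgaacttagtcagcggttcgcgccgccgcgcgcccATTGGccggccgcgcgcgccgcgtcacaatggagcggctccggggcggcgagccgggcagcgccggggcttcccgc
Lrrc8c chr5:105519221-105519520: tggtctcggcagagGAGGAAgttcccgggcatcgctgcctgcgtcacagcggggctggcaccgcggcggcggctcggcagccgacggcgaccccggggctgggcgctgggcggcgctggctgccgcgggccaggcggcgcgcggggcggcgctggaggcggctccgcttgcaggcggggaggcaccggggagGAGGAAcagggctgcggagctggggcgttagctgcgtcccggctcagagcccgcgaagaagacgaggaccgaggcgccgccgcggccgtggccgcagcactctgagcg
Lrrc8d chr5:105699719-105700018: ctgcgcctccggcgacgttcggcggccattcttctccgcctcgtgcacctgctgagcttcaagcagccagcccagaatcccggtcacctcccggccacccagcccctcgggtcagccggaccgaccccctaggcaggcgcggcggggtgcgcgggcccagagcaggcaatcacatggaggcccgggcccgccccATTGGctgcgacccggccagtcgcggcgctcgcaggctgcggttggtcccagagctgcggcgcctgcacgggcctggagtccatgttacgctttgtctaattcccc
Trpv2 chr11:62574236-62574535: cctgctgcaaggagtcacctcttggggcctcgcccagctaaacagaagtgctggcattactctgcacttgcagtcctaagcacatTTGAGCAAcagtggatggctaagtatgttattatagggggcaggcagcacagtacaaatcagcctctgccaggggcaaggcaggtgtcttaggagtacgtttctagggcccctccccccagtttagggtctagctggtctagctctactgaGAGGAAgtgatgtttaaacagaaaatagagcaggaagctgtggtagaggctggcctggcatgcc

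The 3 LRRC8 windows were rich in CpG, with 51 CpG in Lrrc8b, 44 in Lrrc8c and 31 in Lrrc8d, while the Trpv2 window held 2, against a median of 7 over 32817 RefSeq promoter windows of the same length. The GAGGAA motif occurred 2 times in the Lrrc8c window, 1 time in that of Trpv2 and 0 times in those of Lrrc8b and Lrrc8d. Of all windows, 28.3% held it. The TTGCNNAA motif occurred in the Trpv2 window only among the 4 printed, and 10.8% of all windows held it. CCAAT occurred 1 time each in the Lrrc8b and Lrrc8d windows (37.4% of all windows), and CCGGAA (14.9%) and TATAAA (13.6%) occurred in none of the 4. All 9 genes matched a promoter entry. Windows at further starts of Lrrc8d and Trpv2 are not printed, and that of Lrrc8d held no CCAAT. For Trpv2, the window at chr11:62574263-62574562 held 1 TATAAA besides 1 GAGGAA and 1 TTGCNNAA. The Trpv2 window at chr11:62575377-62575676 held none of the motifs searched.

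Reads per gene could be recovered as whole numbers from every value above 0 of the 17 sorted libraries, giving 16502148 to 19330774 reads on genes for the tissue comparison and 9621120 to 15034817 for the Piezo1 experiment, the shallowest being replicate 1 of Piezo1-cKO PB. The depth of the whole-lung libraries is unknown. A gene with no read may still have had up to 3 reads by counting error alone, and this floor is given as FPKM beside low values. Replicate 3 of WT PB in the tissue comparison stood apart from its group, with a chi-square per gene of 24.6 and 40.9 against the other replicates, where other pairs gave 1.90 to 4.77. The WT PB libraries of the Piezo1 experiment had reads on 14103 and 14200 genes, against 11217 to 12400 in the other libraries of that experiment. All 8 neutrophil markers examined were above 0 in every sorted group, with sums of 43709 to 147860 FPKM. In whole lung the same sum was 205 to 266 FPKM in control and 40.1 to 119 in depleted lungs.

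**Figure D1:**
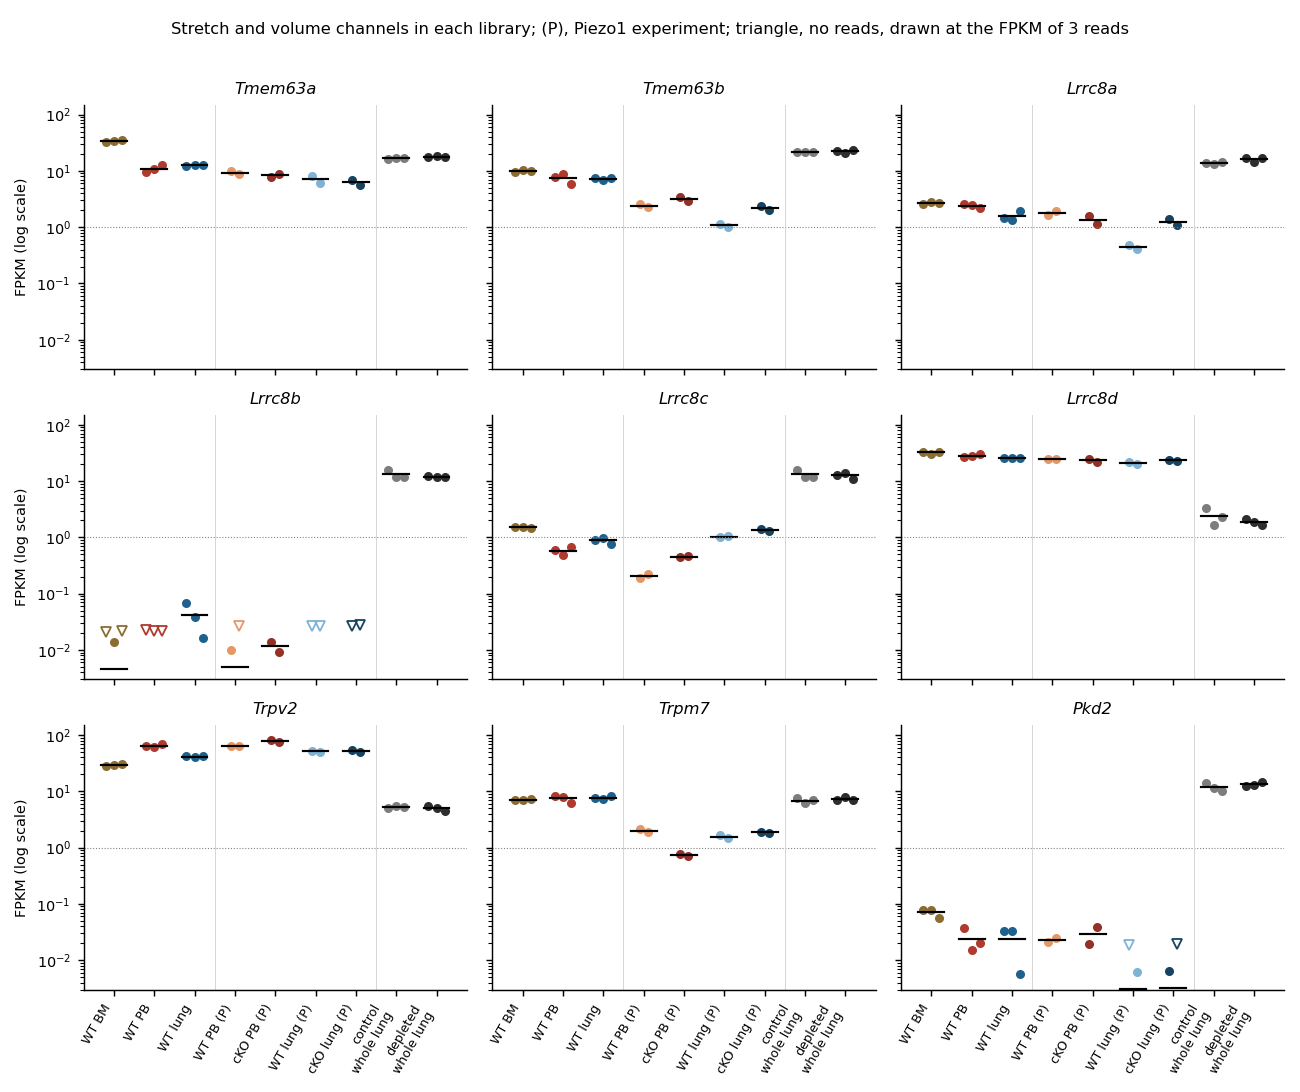
FPKM (log axis) of the 9 channel genes in each library, with the group mean as a bar; (P) marks the Piezo1 experiment, the dotted line is the testing minimum of 1 FPKM, and a triangle is a library without reads drawn at the FPKM of 3 reads. Trpv2 and Lrrc8d stay at 20.3 FPKM or more in every sorted library, while Lrrc8b and Pkd2 reach at most 0.0694 and 0.0781 FPKM there and at least 10.3 FPKM in every whole-lung library.

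Trpv2 was the most abundant member in PB and lung neutrophils. In WT BM its FPKM was 28.7, 29.2 and 30.1, in WT PB 63.9, 61.0 and 69.1, and in WT lung 41.7, 40.7 and 42.4, so the 3 tissues did not overlap as deposited. On FPKM rescaled by each library's median ratio to the others, lung (54.8 to 57.4) overlapped PB (53.6 to 62.1) and BM stayed below both. In WT PB, Trpv2 exceeded 87.1% of the genes with at least 1 FPKM. In the Piezo1 experiment its FPKM was 64.1 and 63.6 in WT PB, 80.3 and 74.0 in PB of Piezo1-cKO mice, 53.0 and 51.0 in WT lung and 53.9 and 50.1 in Piezo1-cKO lung. The highest values as deposited were those of Piezo1-cKO PB, and the 2 lung groups overlapped. After rescaling the order turned, with WT lung highest at 67.9 and 65.0, above Piezo1-cKO PB at 63.9 and 59.3 and Piezo1-cKO lung at 63.6 and 59.3. Whole lung had 5.27 ± 0.151 FPKM in control and 5.03 ± 0.547 in depleted samples (SD, n = 3). These levels and those of whole lung in the following paragraphs come from separately normalised tables, and in bulk samples fewer cells of a type and less RNA per cell cannot be told apart.

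Lrrc8d, the LRRC8 subunit tied to osmolyte transport, was at 20.3 to 33.2 FPKM in the sorted libraries. Its FPKM was 33.2, 30.8 and 32.8 in WT BM, 27.3, 27.6 and 29.8 in WT PB and 25.9, 25.6 and 25.8 in WT lung. As deposited, BM was highest and lung lowest, without overlap. Rescaling turned this order, with lung highest (34.4 to 34.9), above BM (26.3 to 28.6) and PB (23.9 to 26.7), where BM overlapped PB. In the Piezo1 experiment the values lay between 20.3 FPKM (WT lung) and 24.9 FPKM (WT PB), and neighbouring groups in the order WT PB, Piezo1-cKO PB, Piezo1-cKO lung overlapped, while after rescaling both lung groups (25.8 to 28.5) lay above both PB groups (17.6 to 20.3). Lrrc8d exceeded 71.8% to 78.9% of the genes with at least 1 FPKM in every sorted group. In whole lung it was the lowest of the 9 members, at 2.43 ± 0.839 FPKM in control and 1.90 ± 0.211 in depleted lungs (SD, n = 3), and exceeded 20.2% and 14.1% of such genes.

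Lrrc8a, which encodes the subunit that every volume-regulated anion channel needs, was low in neutrophils. Its FPKM was 2.56, 2.81 and 2.66 in WT BM, 2.56, 2.49 and 2.16 in WT PB and 1.48, 1.36 and 1.94 in WT lung, and lung lay below both other tissues in every library as deposited. After rescaling this separation was gone, lung at 1.83 to 2.62 overlapping PB at 1.94 to 2.25 and BM at 2.20 to 2.39. The Piezo1 experiment gave 1.68 and 1.93 in WT PB, 1.56 and 1.13 in PB of Piezo1-cKO mice, 0.474 and 0.407 in WT lung and 1.37 and 1.10 in Piezo1-cKO lung. WT lung had 30 and 26 reads for this gene, against 86 and 67 in Piezo1-cKO lung, and stood apart from the other 3 groups. Whole lung had 13.9 ± 0.401 FPKM in control and 16.1 ± 1.34 in depleted samples.

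Lrrc8c was also low in neutrophils. In the tissue comparison it had 1.51, 1.54 and 1.47 FPKM in WT BM, 0.586, 0.481 and 0.685 in WT PB and 0.912, 0.984 and 0.763 in WT lung, with no overlap, though lung (1.03 to 1.33) overlapped BM (1.26 to 1.31) after rescaling. Libraries of the Piezo1 experiment had 0.189 and 0.221 FPKM in WT PB (18 and 24 reads), 0.446 and 0.469 in Piezo1-cKO PB (31 and 48 reads), 1.02 and 1.04 in WT lung and 1.39 and 1.28 in Piezo1-cKO lung, again with no overlap between groups. Whole lung had 13.3 ± 2.22 and 12.7 ± 1.45 FPKM in control and depleted samples.

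Lrrc8b was close to absent from the sorted reads. It had 0, 2 and 0 reads in the WT BM libraries, 0 in each WT PB library and 9, 5 and 2 in the WT lung libraries, or 0.0694, 0.0385 and 0.0160 FPKM in lung. The Piezo1 experiment gave 1 and 0 reads in PB of WT mice, 1 and 1 in PB of Piezo1-cKO mice and 0 in all 4 lung libraries. At these depths 3 reads of Lrrc8b were worth up to 0.0240 FPKM for the tissue comparison and up to 0.0412 FPKM for the Piezo1 experiment, so lower levels were not detectable. In the tissue comparison, endothelial markers were highest in lung as well. The summed FPKM of 7 such genes, Cdh5 and Tie1 among them, was 0.418 to 0.975 in WT lung with 7 of 7 above 0. WT BM had 0.0190 to 0.0922 with Cldn5 and Ramp2 at 0, and WT PB had 0 to 0.119 with 6 of 7 at 0. In the Piezo1 experiment, the sum reached its highest value in Piezo1-cKO lung (0.260 to 0.617), which had 0 reads of Lrrc8b. There it was 0.284 to 0.431 in WT PB, 0.352 to 0.499 in Piezo1-cKO PB and 0 to 0.124 in WT lung. Whole control lung had 551 to 740 FPKM of these markers and 13.2 ± 2.33 FPKM of Lrrc8b (15.9, 11.8 and 11.995), and depleted lung had 11.9 ± 0.218. The part of the endothelial signal in the lung reads of Lrrc8b was not tested.

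Summed over the 5 LRRC8 genes, neutrophils carried 22.7 to 36.5 FPKM as group means, and Lrrc8d made up most of it. Its share of the sum was 88.5% ± 0.784 in WT BM, 90.4% ± 0.817 in WT PB and 91.0% ± 0.491 in WT lung (SD, n = 3), and 90.1% to 93.5% in the 4 groups of the Piezo1 experiment. In whole lung the sum was 46.0 ± 5.40 FPKM in control, but Lrrc8d held 5.20% ± 1.21 of it. There Lrrc8a held 30.4%, Lrrc8b 28.7%, Lrrc8c 28.8% and Lrrc8e 6.84%. The Lrrc8d share ranged from 87.6% to 93.7% over all 17 sorted libraries and from 3.79% to 6.40% over the 6 whole-lung libraries. Shares within a library do not depend on how the library was scaled, though the gene lengths behind FPKM may differ between the tables, and they describe mRNA and not the make-up of the channels. Lrrc8e, the fifth family member, had at most 12 reads in any sorted library, reached in WT PB of the Piezo1 experiment, where its 2 libraries held 22 reads.

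**Figure D2:**
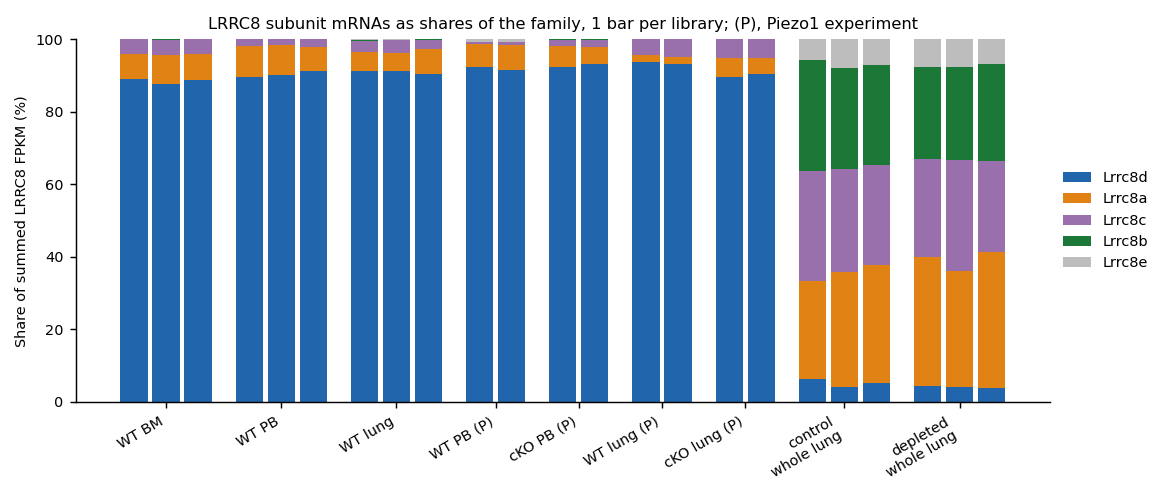
Share (%) of each LRRC8 gene in the summed LRRC8 FPKM, with 1 bar per library and groups from left to right; (P) marks the Piezo1 experiment. Lrrc8d takes 87.6% to 93.7% of each sorted neutrophil bar and 3.79% to 6.40% of each whole-lung bar.

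Tmem63a was highest in BM neutrophils. Its FPKM was 32.2, 33.6 and 34.8 in WT BM, 9.65, 10.6 and 12.6 in WT PB and 12.3, 12.9 and 12.5 in WT lung. BM stood apart and PB overlapped lung, while after rescaling lung (16.6 to 17.3) lay above PB (8.46 to 11.3) and below BM (27.7 to 29.8). In the Piezo1 experiment the values lay between 5.70 FPKM (Piezo1-cKO lung) and 10.03 FPKM (WT PB), and each group overlapped its neighbour in the order. Tmem63b was less abundant, with 9.38, 10.4 and 10.1 FPKM in WT BM, 7.79, 8.87 and 5.89 in WT PB and 7.40, 6.96 and 7.43 in WT lung, where PB overlapped lung. After rescaling lung was highest (9.38 to 10.05), above BM (8.07 to 8.88) and PB (5.29 to 7.79). The Piezo1 experiment gave lower Tmem63b values, 2.56 and 2.27 FPKM in WT PB, 3.48 and 2.92 in PB of Piezo1-cKO mice, 1.16 and 1.02 in WT lung and 2.33 and 1.99 in Piezo1-cKO lung, with WT lung below all others. The tables of the experiments were normalised separately, and the difference in level between experiments was not tested. It was not alike for all members. In WT PB, the tissue comparison and the Piezo1 experiment gave means of 64.7 and 63.8 FPKM for Trpv2 and 28.2 and 24.8 for Lrrc8d. For Tmem63b they gave 7.52 and 2.41, and for Trpm7 7.52 and 1.99. The genotype comparisons of Tmem63b and Trpm7 rest on the lower levels. Tmem63a formed 77.1% ± 0.671 of the TMEM63 sum in WT BM, 59.3% ± 7.67 in WT PB and 63.3% ± 1.35 in WT lung, against 43.8% ± 0.651 in control whole lung, where Tmem63b was the higher of the pair (21.7 against 16.9 FPKM). Tmem63c, the remaining relative, had at most 12 reads in any sorted library.

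Trpm7 had 7.13, 7.07 and 7.24 FPKM in WT BM, 8.29, 7.94 and 6.33 in WT PB and 7.59, 7.30 and 8.14 in WT lung, with overlap of PB with both others, and after rescaling lung (9.83 to 11.0) lay above PB (5.69 to 7.26) and BM (6.02 to 6.19). For the Piezo1 genotypes it had 2.11 and 1.88 FPKM in WT PB, 0.766 and 0.718 in PB of Piezo1-cKO mice, 1.68 and 1.46 in WT lung and 1.93 and 1.82 in Piezo1-cKO lung. Piezo1-cKO PB thus stood below the other 3 groups, with 58 and 80 reads. As for Tmem63b, the level was lower in the Piezo1 experiment than in the tissue comparison in all libraries, including those of the WT groups. Whole lung had 6.84 ± 0.678 FPKM in control and 7.27 ± 0.490 in depleted samples. Trpm6, the closest relative of Trpm7, had at most 10 reads in any sorted library and 6.80 ± 0.576 FPKM in control lung.

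Pkd2 was at the limit of detection in neutrophils. It had 16, 16 and 11 reads in WT BM (0.0781, 0.0775 and 0.0561 FPKM), 7, 3 and 4 in WT PB and 6, 6 and 1 in WT lung. In the Piezo1 experiment, PB held 3 and 4 reads in WT mice and 2 and 6 in Piezo1-cKO mice. Each lung group there held 1 read in total. The 3-read floor was at most 0.0170 FPKM for the tissue comparison and 0.0292 FPKM for the Piezo1 experiment, so BM lay above the floor and the lung groups of the Piezo1 experiment did not. Control whole lung had 14.0, 11.7 and 10.3 FPKM of Pkd2 and depleted lung 12.5, 12.9 and 14.8, which overlapped. Pkd1, whose protein partners with PKD2, was better detected, with 1.22 ± 0.0572 FPKM in WT BM, 2.12 ± 0.398 in WT PB and 1.52 ± 0.153 in WT lung.

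Piezo1 itself had 1.21 ± 0.0539 FPKM in WT BM, 0.335 ± 0.0742 in WT PB and 0.291 ± 0.0849 in WT lung (n = 3), below Trpv2, Lrrc8d, both TMEM63 genes and Trpm7 in the same libraries. With the Piezo1 genotypes it had 5 and 5 reads in PB of WT mice, 3 and 10 in that of Piezo1-cKO mice, 8 and 8 in WT lung and 7 and 4 in Piezo1-cKO lung. With so few reads the genotype labels could not be checked against Piezo1. The count also runs over the whole gene and not over the deleted part alone. Mean Piezo1 FPKM was 0.0382 in WT PB and 0.0574 in WT lung of this experiment, below the tissue comparison. That difference between experiments was not tested. For purified BM neutrophils, the study reports efficient loss of Piezo1 with Vav1-Cre in mRNA and protein. Trpv4, another stretch-linked cation channel, had 0.254 ± 0.0526 FPKM in WT PB, its highest sorted group, from 12 to 19 reads per library.

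Tissue differences were tested with limma on log2(FPKM + 1) with Benjamini-Hochberg adjustment, and a gene was called at an adjusted p below 0.05 with an absolute log2 fold change above 1. On this scale the changes of low genes are understated. Lrrc8b and Pkd2 did not reach the minimum of 1 FPKM in any sorted comparison and were not tested there, and the same held for Lrrc8c in 2 of them. The deposited FPKM were shifted between tissues: the median log2 fold change of all tested genes was -0.54 for WT lung minus WT PB, -0.70 for WT lung minus WT BM and -0.12 for WT PB minus WT BM. After rescaling each library by its median ratio to the others, these shifts were -0.04, -0.18 and -0.06. The member medians as deposited were -0.08, -0.41 and -0.19.

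Against BM, the stretch channel Tmem63a fell in PB and in lung and Trpv2 rose in PB. Tmem63a was lower in WT PB than in WT BM by a log2 fold change of -1.54 ± 0.09 (SE; adjusted p = 1.96e-06) and in WT lung by -1.35 ± 0.04 (adjusted p = 5.83e-10). Trpv2 was higher in WT PB than in WT BM by 1.11 ± 0.06 (adjusted p = 9.95e-07), a ratio of mean FPKM of 2.21. Thus 2 of 7 tested members were called for PB against BM, where 22% of all tested genes were, and 1 of 7 for lung against BM, where 45.9% were. Without replicate 3 of WT PB the changes in PB were -1.64 for Tmem63a and 1.06 for Trpv2.

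The scaling of the libraries touched the lung result. After rescaling, Tmem63a was lower in lung than in BM by -0.72, short of the fold threshold, and Trpv2 was higher by 1.13, past it, where it was 0.49 ± 0.03 as deposited (adjusted p = 2.46e-07). By adjusted p alone, 6 of 7 members passed for lung against BM (92.6% of all genes) and 5 of 7 for PB against BM (73.1%). Those short of the fold threshold for PB against BM were Lrrc8c at -0.66 (adjusted p = 8.30e-05; -1.24 with a pseudocount of 0.1 and -1.37 by limma-voom, both past it), Tmem63b at -0.38 (adjusted p = 0.0265) and Lrrc8d at -0.19 (adjusted p = 0.0189). Trpm7 was at 0.06 for PB against BM (95% interval -0.17 to 0.28) and 0.09 for lung against BM (-0.04 to 0.22), where the median gene was at -0.70. Without replicate 3 of WT PB, Trpm7 was at 0.16 for PB against BM (adjusted p = 0.0366).

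Between lung and PB of WT mice, none of 6 tested members was called, where 27.2% of all tested genes were; by adjusted p alone 2 of 6 passed (85.5% of all genes), Trpv2 at -0.62 ± 0.06 (adjusted p = 2.31e-05) and Lrrc8a at -0.40 ± 0.11 (adjusted p = 0.00800). The 95% intervals were -0.03 to 0.40 for Tmem63a, -0.32 to 0.26 for Tmem63b and -0.20 to 0.27 for Trpm7, and Lrrc8d was at -0.13 ± 0.05 (adjusted p = 0.0584). Relative to the median gene at -0.54, Trpv2 differed by -0.09 and Lrrc8a by 0.14, while Tmem63a differed by 0.72, Trpm7 by 0.57, Tmem63b by 0.51 and Lrrc8d by 0.41. After rescaling, Lrrc8d (0.45) and Tmem63b (0.50) were higher in lung, the opposite of the sign as deposited, while Lrrc8a (-0.0053, adjusted p = 0.969) and Trpv2 (-0.04, adjusted p = 0.613) no longer passed by adjusted p alone. Lrrc8c was tested only without the filter on low values and was higher in lung by 0.25, from 0.584 to 0.886 FPKM (adjusted p = 0.0415). Without replicate 3 of WT PB, Tmem63a was at 0.28 (adjusted p = 0.00216), Tmem63b at -0.17, Lrrc8a at -0.45, Trpm7 at -0.07 and Trpv2 at -0.57.

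The same tissues in the WT mice of the Piezo1 experiment gave larger values for several members. None of 7 was called, where 34% of all genes were, and 6 of 7 passed by adjusted p alone (89%). Lrrc8a was lower in lung by -0.96 ± 0.09 (adjusted p = 3.80e-05) and Tmem63b by -0.71 ± 0.10 (adjusted p = 0.000268), and Lrrc8c was higher by 0.75 ± 0.08 (adjusted p = 6.77e-05). These genes are low, so the scale mattered: on the recovered reads limma-voom gave -2.02 for Lrrc8a, -1.14 for Tmem63b and 2.30 for Lrrc8c, all past the fold threshold, and the ratio of mean FPKM for Lrrc8c was 5.03. The abundant members moved less, with Trpv2 at -0.29 ± 0.04, Lrrc8d at -0.22 ± 0.06 and Tmem63a at -0.35 ± 0.13. These 3 changed sign after rescaling, to 0.34, 0.40 and 0.23, the median of all genes as deposited being -0.62.

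In Piezo1-cKO mice, lung against PB also gave no call among 7 members (30.9% of all genes), with 5 of 7 passing by adjusted p alone (84.5%). Lrrc8c was again higher in lung, by 0.68 ± 0.09 (adjusted p = 0.000355), and Trpm7 was higher by 0.72 ± 0.09 (adjusted p = 0.000298). Their limma-voom values were 1.53 and 1.34, past the fold threshold, and Trpm7 was at 1.04 after rescaling. Trpv2 was lower by -0.56 ± 0.06 (adjusted p = 0.000180) and Tmem63b by -0.41 ± 0.11 (adjusted p = 0.0120), and both were at 0.01 after rescaling. Tmem63a was at -0.36 ± 0.11 (adjusted p = 0.0160), and at 0.15 after rescaling. Lrrc8a and Lrrc8d were at -0.06 (95% interval -0.37 to 0.24) and near 0 (-0.19 to 0.18), where Lrrc8d was at 0.56 after rescaling and the median gene as deposited was at -0.54.

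**Figure D3:**
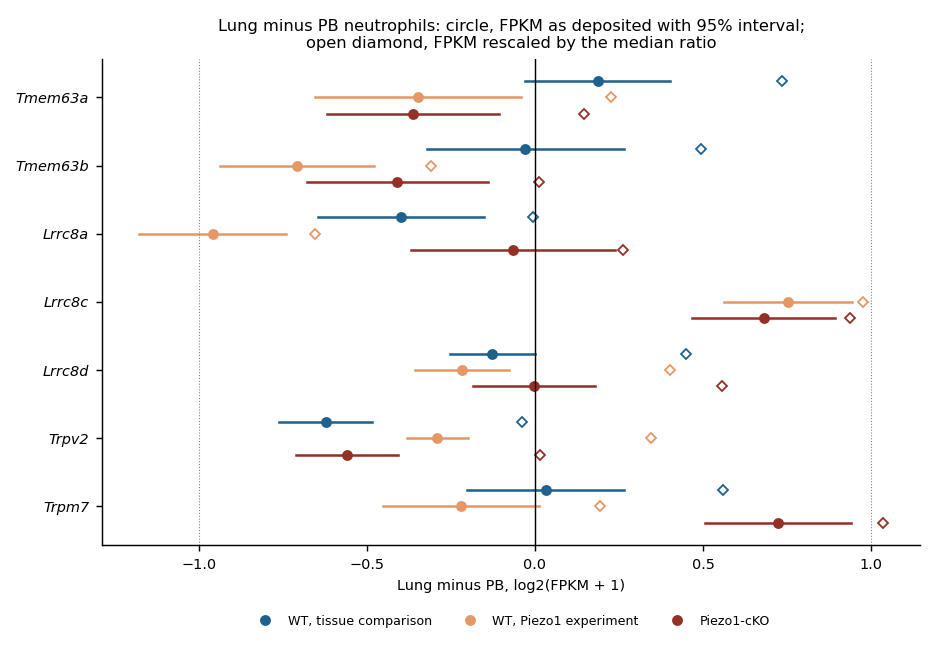
Lung minus PB difference in log2(FPKM + 1) of the tested channel genes in 3 settings, WT of the tissue comparison, WT of the Piezo1 experiment and Piezo1-cKO; circles with 95% intervals are FPKM as deposited and open diamonds are rescaled FPKM, with dotted lines at the threshold of 1. Lrrc8c lies above 0 on both scales where tested, while Lrrc8d moves from -0.13, -0.22 and near 0 to 0.45, 0.40 and 0.56.

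Piezo1 deletion was compared within each tissue, the question being how the other channel genes stood in the libraries labelled Piezo1-cKO. In lung neutrophils none of 7 tested members was called, where 0.995% of all tested genes were. By adjusted p alone 2 of 7 passed (50.7% of all genes): Lrrc8a at 0.63 ± 0.10 (adjusted p = 0.00210) and Tmem63b at 0.59 ± 0.10 (adjusted p = 0.00302). The ratios of mean FPKM were 2.82 and 1.98, all Piezo1-cKO libraries lay above all WT libraries, and limma-voom put Lrrc8a at 1.48, past the fold threshold. With 2 libraries per group such separation, here and in PB, carries little weight by itself. The share of all genes that show it is not given here. Endothelial and monocyte marker sums moved the same way. The endothelial sum was 0.260 to 0.617 FPKM in Piezo1-cKO lung with 3 of 7 above 0 and Cdh5, Kdr, Tek and Emcn at 0. In WT lung it was 0 to 0.124 with 2 of 7 above 0. The sum of 8 monocyte and macrophage markers was 163 to 166 FPKM against 133 to 135 in WT lung. Of these, 4 of 8 were above 0 in Piezo1-cKO lung and 5 of 8 in WT lung. Ccr2, C1qa and Mrc1 were at 0 in both, and Marco in Piezo1-cKO lung only. In each of these lung groups 3 of the 8 had a mean of at least 1 FPKM. The monocyte and macrophage sum was 136 to 147 FPKM in control whole lung and 196 to 200 FPKM in WT PB of this experiment. Epithelial and erythroid marker sums moved the other way, at 3.88 to 4.41 and 0.422 to 1.70 FPKM against 6.33 to 6.79 and 5.11 to 5.12 in WT lung. The part of any of these markers in the Lrrc8a and Tmem63b values was not tested.

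The other 5 tested members did not pass in lung. Their 95% intervals of the log2 fold change were -0.11 to 0.11 for Trpv2, -0.01 to 0.27 for Lrrc8d, -0.48 to 0.15 for Tmem63a, -0.07 to 0.39 for Trpm7 and -0.01 to 0.41 for Lrrc8c. For these 5, values beyond the threshold of 1 in either direction lay outside the interval. The member median was 0.16 and that of all genes 0.09.

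In PB neutrophils none of 6 tested members was called, where 3.65% of all tested genes were, and 2 of 6 passed by adjusted p alone (49.7%). Trpm7 was lower in Piezo1-cKO PB by -0.78 ± 0.10 (adjusted p = 0.00132), with a ratio of mean FPKM of 0.372, and 96.2% of tested genes had a higher log2 fold change. On the recovered reads limma-voom gave -1.42, past the fold threshold. Trpv2 was higher by 0.27 ± 0.06 (adjusted p = 0.00719), a ratio of 1.21. Tmem63b (0.30, adjusted p = 0.0591), Lrrc8a (-0.26, adjusted p = 0.125), Tmem63a (-0.15, adjusted p = 0.239) and Lrrc8d (-0.09, adjusted p = 0.362) did not pass. Lrrc8c was tested only without the filter and was higher in Piezo1-cKO PB by 0.27 (adjusted p = 0.0436), a ratio of mean FPKM of 2.23 with no overlap. Erythroid transcripts differed between these groups: 6 markers, the globin genes Hbb-bs and Hba-a1 among them, summed to 1011 to 1136 FPKM in Piezo1-cKO PB with 6 of 6 above 0, and to 24.9 to 26.7 FPKM in WT PB with 5 of 6 above 0 and Alas2 at 0. The WT PB libraries also had the most genes detected. The part of either in the PB values of Trpm7 and Trpv2 was not tested.

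The difference between the genotype effects of lung and PB was tested as an interaction, called at an adjusted p below 0.05 with no fold threshold. It passed for 3 of 7 members, where 48.2% of all tested genes passed. The genotype effect on Trpm7 was more positive in lung by 0.94 ± 0.13 (adjusted p = 0.000581) and that on Lrrc8a by 0.89 ± 0.16 (adjusted p = 0.00247). For Trpv2 it was more negative in lung by -0.27 ± 0.08 (adjusted p = 0.0181). Trpv2 no longer passed without replicate 1 of WT lung (adjusted p = 0.0618), replicate 2 of Piezo1-cKO lung (0.0650), replicate 1 of WT PB (0.0501) or replicate 2 of WT PB (0.0554). Lrrc8d (0.21, adjusted p = 0.105), Tmem63b (0.30, adjusted p = 0.125), Lrrc8c (-0.07, adjusted p = 0.620) and Tmem63a (-0.02, adjusted p = 0.952) did not pass, though Lrrc8d passed without replicate 1 of Piezo1-cKO PB, the shallowest library (0.30, adjusted p = 0.0300), and by limma-voom (0.24, adjusted p = 0.0150). The 4 genotype and tissue contrasts of this experiment share libraries and are not independent of one another.

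**Figure D4:**
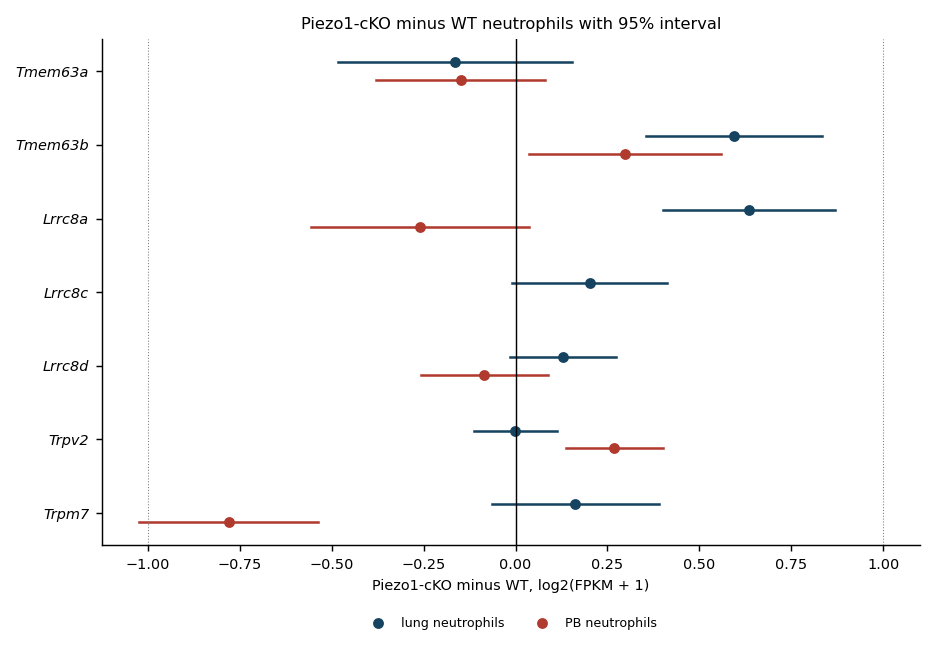
Piezo1-cKO minus WT difference in log2(FPKM + 1) of the tested channel genes in lung and PB neutrophils, with 95% intervals and dotted lines at the threshold of 1. Trpm7 sits at -0.78 in PB and 0.16 in lung, and Lrrc8a at -0.26 and 0.63.

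In whole lung, all 9 members could be tested between depleted and control mice, with a fold threshold of 0.5 on the log2 scale. None of 9 was called, where 0.00715% of all tested genes were, that is 1 of 13990 (Aqp5). The same test called 0 of 7 tested neutrophil markers, though all 7 were lower in depleted lungs, at a median log2 fold change of -1.48. A lack of calls in this comparison therefore says little about the members. At an unadjusted p below 0.05 there were 1570 genes, 1 member among them. This was Lrrc8a, with 14.1, 13.4 and 14.2 FPKM in control and 17.2, 14.6 and 16.6 in depleted lungs, a log2 fold change of 0.20 ± 0.08 (adjusted p = 0.419). Lrrc8d, the main LRRC8 mRNA of the sorted neutrophils, had 3.34, 1.68 and 2.27 FPKM in control and 2.10, 1.90 and 1.68 in depleted lungs, a log2 fold change of -0.22 (95% interval -0.64 to 0.20). Trpv2 stood at -0.06 (-0.28 to 0.16), and the other 6 lay between -0.13 for Lrrc8b and 0.16 for Pkd2. Decreases down to the lower ends of these intervals were not detectable with 3 libraries per group.

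Other genes of the same processes were taken from lists, and their changes are log2 fold changes as deposited unless stated. For counts after rescaling, the share of all genes called is not given. Of 24 further mechanically gated or candidate channels, 1 to 4 had a mean of at least 1 FPKM in any sorted group, against 10 in control whole lung. Of the few that could be tested, Tmem87a, a Golgi-linked membrane protein studied as a mechanosensitive channel, fell in lung against PB in WT mice of both experiments (-1.14 and -1.47), and was the only one called of 3 and of 2 tested, where 27.2% and 34% of all tested genes were called. None of 4 was called against BM in PB (22% of all genes) or in lung (45.9%). None of 2 was called between genotypes in lung (0.995%) or PB (3.65%) or between lung and PB in Piezo1-cKO mice (30.9%), and none of 10 in whole lung (0.00715%). In the interaction, which 48.2% of all genes passed, both tested genes passed, Tmem87a at 1.04 and Tmem120a at -0.62. After rescaling, Tmem87a was at -0.59 for lung against PB in the tissue comparison, short of the fold threshold, and at -1.10 in the Piezo1 experiment. The medians of the tested list genes were -0.30 for lung against PB, -0.40 for lung against BM and -0.06 for PB against BM.

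Of 23 genes of cell volume regulation, 4 of 13 tested fell in lung against BM and none rose, where 45.9% of all tested genes were called in either direction. Among the 4 were Stk39, a kinase that acts on chloride cotransporters (-2.31), and Slc4a2, an anion exchanger (-1.84). In PB against BM 2 of 13 fell (22% of all genes called), Stk39 (-1.97) and the upstream kinase Wnk1 (-1.17), and Wnk1 was the 1 of 11 called between lung and PB of WT mice (27.2%), where it rose (1.06). In the WT mice of the Piezo1 experiment 1 of 12 was called between lung and PB (34%), the scramblase and channel gene Ano6 (-1.23). None was called of 11 between lung and PB in Piezo1-cKO mice (30.9%), of 10 between genotypes in lung (0.995%), of 12 in PB (3.65%) and of 20 in whole lung (0.00715%). In the interaction 8 of 12 passed, against 48.2% of all genes, 7 of them positive, with Ano6 (1.37) and Slc4a2 (0.79) the highest and Wnk1 (-0.38) the negative one. The list medians were -0.45 for lung against PB, -0.22 for lung against BM and -0.48 for PB against BM. After rescaling, 2 of 13 were called lower in lung against BM, and in the WT mice of the Piezo1 experiment Ano6 was at -0.77 and the 1 gene called was higher in lung, as was 1 of 11 in Piezo1-cKO mice.

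Of 18 genes of calcium and magnesium entry and release, Slc41a1, a magnesium transporter, rose in lung against BM (2.72), in PB against BM (1.49) and in lung against PB (1.23). The ATP-gated channel gene P2rx1 fell in lung and PB against BM (-2.62 and -2.76), as did Mcu, the mitochondrial calcium uniporter (-2.00 and -1.60). In all, 5 of 12 were called in each of these BM contrasts, 1 rising and 4 falling, where 45.9% of all genes were called for lung and 22% for PB. For lung against PB 2 of 11 were called (27.2%), with Orai1, the store-operated calcium channel, falling (-1.71). Orai1 of the Piezo1 experiment also fell in lung against PB, in WT (-1.36, 1 of 11 called against 34% of all genes) and in Piezo1-cKO mice (-1.50, 4 of 11 called against 30.9%, with Slc41a1 at 1.50 and Stim2 at 1.47 rising). Between genotypes 0 of 11 were called in lung (0.995% of all genes) and 1 of 10 in PB (3.65%), where the calcium sensor gene Stim2 fell (-1.16). In the interaction 5 of 11 passed (48.2% of all genes), all positive, with Mcu (1.17) and Stim2 (1.07) the highest, and 0 of 16 were called in whole lung (0.00715%). The list medians were -0.17 for lung against PB, -0.30 for lung against BM and -0.09 for PB against BM. Rescaling changed the balance for lung against BM to 3 rising and 2 falling, that for lung against PB to 3 rising and 1 falling in the tissue comparison and that in Piezo1-cKO mice to 3 rising and 0 falling. It left 1 rising and 0 falling for lung against PB in WT mice of the Piezo1 experiment, and the interaction with 5 positive and 2 negative. After rescaling Orai1 was at -1.13 in the tissue comparison and at -0.72 and -0.93 in WT and Piezo1-cKO mice of the Piezo1 experiment. In the tissue comparison, rescaling moved the median of all tested genes from -0.70 to -0.18 for lung against BM. For lung against PB there it moved from -0.54 to -0.04. The counts after rescaling therefore do not set this list apart from other genes.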

How the data were processed

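Poly(A) RNA was sequenced as paired ends, and the submitters' processing notes name fastp, HISAT2, HTSeq and mm10; versions are not given in the sources used here, and labels and methods differ on the library kit. The authors deposited FPKM per gene, and for the Piezo1 experiment also a signal per group, which is the authors' mean of size-factor-normalised counts and served here only to recover reads. The authors' fold changes, p-values and q-values were not used.

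Whole reads were recovered from 100% of the values above 0 in 17 sorted libraries (tolerance 0.04 reads, or 0.0002 relative above 200 reads). All genes reaching an FPKM of 1 in 3 or more libraries (2 in the Piezo1 experiment) were tested with limma 3.58.1 in R 4.3.3 (trend, Benjamini-Hochberg) on log2(FPKM + 1), within a table or, for lung against PB in the Piezo1 experiment, across its 2 tables. The fits were tested on simulated data. Alternatives were a pseudocount of 0.1, no filter, median-ratio rescaling, a replicate block, adjusted p alone, limma-voom and each library left out.

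The genes and lists were chosen with earlier results of these data known. Named list genes were Piezo1, Trpv4, relatives or partners of members, and the 2 largest called rises and falls per comparison; Aqp5 and single marker genes were named after their values were seen. Patterns most like a member were ranked by Pearson r over 9 tissue libraries. Intervals and floors cover counting error or library spread only, and promoter sequences are from RefSeq.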

Additional observations from a re-analysis of the deposited data

Results flagged for a closer look

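Because the groups held 2 or 3 libraries, no single library could be tested as an outlier within its group. The genotype effect differed between lung and PB neutrophils by the interaction test of limma for 3 of the 9 genes. For Trpm7 the Piezo1-cKO minus WT difference was 0.16 in lung and -0.78 in PB on the log2(FPKM + 1) scale, so that the lung value was higher by 0.94 (adjusted p = 0.000581), and both Piezo1-cKO PB libraries lay below all WT PB libraries. For Lrrc8a the differences were 0.63 and -0.26, apart by 0.89 (adjusted p = 0.00247), and the libraries of the genotypes did not overlap in either tissue. By limma within PB alone, the Lrrc8a difference did not pass (adjusted p = 0.125). With 2 libraries per group, a lack of overlap carries little weight by itself. For Trpv2 the difference was near 0 in lung and 0.27 in PB, apart by -0.27 (adjusted p = 0.0181). Of all genes tested, 48.2% passed this test. The erythroid marker sum of 1011 to 1136 FPKM in Piezo1-cKO PB against 24.9 to 26.7 in WT PB stands beside the PB values, and its part in them was not tested.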

How the results depend on the processing

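Of 689 refits of single members, 625 kept direction and side of the threshold, 45 gained a call, 8 lost one and 11 changed sign. All 11 changes of sign came from rescaling FPKM by the median ratio. They were, for WT lung minus WT PB, Tmem63b 0.50 and Lrrc8d 0.45; for WT lung minus WT BM, Tmem63b 0.18 and Lrrc8d 0.32; for lung minus PB in WT mice of the Piezo1 experiment, Tmem63a 0.23, Lrrc8d 0.40 and Trpv2 0.34; and in Piezo1-cKO mice, Tmem63a 0.15, Tmem63b 0.011, Lrrc8d 0.56 and Trpv2 0.014. Rescaling shifts every gene of a library alike, and 46 of 81 member means moved by at least 1 SD under it.

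With adjusted p alone the members called numbered 2 for lung against PB, 6 for lung against BM, 5 for PB against BM, 2 between genotypes in lung, 2 in PB, 6 for lung against PB in WT mice of the Piezo1 experiment and 5 in Piezo1-cKO mice. A pseudocount of 0.1 and limma-voom each called 1 between genotypes in lung (Lrrc8a), 1 in PB (Trpm7), 3 for PB against BM (Lrrc8c added, at -1.24 and -1.37), 3 for lung against PB in WT mice of the Piezo1 experiment (Tmem63b, Lrrc8a, Lrrc8c) and 2 in Piezo1-cKO mice (Lrrc8c, Trpm7), where rescaling called 1 (Trpm7). Both use a scale that shrinks low genes less, whether members or not. The share of all genes called with the pseudocount of 0.1, limma-voom or rescaling is not given here. These counts therefore do not show whether members stood out. By limma-voom Lrrc8d also passed in the interaction (0.24). The interaction called 0 members with an added fold threshold of 1, and 2 to 4 when a library was left out. Leaving out a library moved no other member count.

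Same-numbered libraries did not deviate together from their group means (every correlation of same-numbered deviations was below 0.1 in size). This cannot exclude that they came from the same mouse. A fit with the replicate block called the same number of members in all 9 comparisons. Among these counts were 0 for lung against PB, 1 for lung against BM, 2 for PB against BM and 3 in the interaction. Depth limited Lrrc8b and Pkd2, with at most 16 reads in a sorted library, and the 2 libraries per group limited every genotype result.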

Other observations

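Over the 9 tissue libraries, the genes whose log2(FPKM + 1) followed a member most closely were ranked among 5107 genes with a mean of at least 5 FPKM, as a description of libraries that share 3 tissues. For Tmem63a they were Prune, Klhl6 and Fpr2, each at a Pearson r of 0.996, and Klhl6 had 53.1 FPKM in BM, 4.98 in PB and 6.11 in lung. For Lrrc8d they were Canx (0.990), Atp5h (0.983) and Vdac3 (0.981), all highest in BM. For Trpv2 they were Tgfbi (0.998), Myadm (0.997) and Syt11 (0.997), and Tgfbi had 254 FPKM in BM, 710 in PB and 405 in lung. All these correlations used FPKM as deposited and were not repeated after rescaling. Rescaled Lrrc8d was highest in lung, at a mean of 34.7 against 27.6 in BM, so its closest genes may differ on that scale.

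Pkd1 had 0.875 ± 0.0562 FPKM in WT PB of the Piezo1 experiment and 0.223 ± 0.0422 in Piezo1-cKO PB (n = 2), and 0.205 ± 0.0567 and 0.159 ± 0.0469 in WT and Piezo1-cKO lung, below the testing minimum. Lrrc8e, Trpm6 and Tmem63c had up to 12, 10 and 12 reads in a WT PB library of that experiment, the libraries with the most genes detected. Outside WT PB, Lrrc8e had 0 reads in all 3 other groups, WT lung included, and Trpm6 had 3 reads in WT lung and 0 in both Piezo1-cKO groups.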
